A study of Homo sapiens and Mus musculus with 74 samples.

Results

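The giant ubiquitin ligases are 7 genes whose proteins are among the longest that mouse cells make: Huwe1, Herc1, Herc2, Ubr4, Mycbp2, Birc6 and Rnf213. They were chosen by name and found by gene symbol in the GENCODE M21 annotation, and 1 transcript was used for each gene, the one coding for the longest protein. These are 7 of the 22484 coding genes of the mouse count table, and the longest annotated proteins have 4378 residues for Huwe1 and 5180 for Ubr4, the shortest and the longest of the group. The samples came from kidney and brain of 10-week-old male C57BL/6J mice, either WT (Rpl41+/+) or KO (Rpl41-/-). The KO mice lack the coding sequence of Rpl41, a very small ribosomal protein. The deletion was made by CRISPR-Cas9 in zygotes, and the study obtained homozygous mice by crossing heterozygotes. RNA-seq of poly(A) RNA and Ribo-seq, which sequences the fragments protected by single ribosomes, were made from both tissues, and disome-seq, which sequences the longer fragments protected by 2 stacked ribosomes, from kidney. Each genotype, tissue and assay had 3 libraries, 30 in all, and the measures followed here are the change in RNA, footprints, translation efficiency (TE, footprints relative to RNA) and disomes on loss of Rpl41.

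A ubiquitin ligase (E3) takes ubiquitin from a conjugating enzyme (E2), which has received it from an activating enzyme (E1), and passes it to a substrate, often marking it for the proteasome. HECT ligases carry ubiquitin on a cysteine of their own before handing it on, whereas RING ligases bring the loaded E2 to the substrate. Huwe1, Herc1 and Herc2 are HECT ligases. Ubr4 binds destabilising N-terminal residues through its UBR box, Mycbp2 is a RING-type ligase of axons and synapses that relays ubiquitin between cysteines, Birc6 joins a caspase-inhibiting BIR domain to an E2 domain of its own, and Rnf213 combines a RING ligase with an AAA-type ATPase and acts in defence against intracellular microbes. A coding sequence of this length keeps many ribosomes at work on 1 mRNA, and a ribosome needs several minutes to traverse it.

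The genes are spread over 7 chromosomes of GRCm38. Ubr4 (ENSMUSG00000066036) lies at chr4:139380659-139489588 on the plus strand, Herc2 (ENSMUSG00000030451) at chr7:56050389-56231763 on the plus strand and Herc1 (ENSMUSG00000038664) at chr9:66350526-66508775 on the plus strand. Rnf213 (ENSMUSG00000070327) lies at chr11:119393100-119487415 on the plus strand, Mycbp2 (ENSMUSG00000033004) at chr14:103113411-103346800 on the minus strand, Birc6 (ENSMUSG00000024073) at chr17:74528468-74702383 on the plus strand and Huwe1 (ENSMUSG00000025261) at chrX:151803327-151935417 on the plus strand. The transcripts used have 67 exons (Rnf213) to 106 exons (Ubr4) and 14579 to 16716 bases, of which 13134 (Huwe1) to 15540 (Ubr4) are coding. The GC content of the coding sequence ranges from 47.0% (Birc6) to 54.6% (Ubr4). The annotation lists 2 other transcripts of Rnf213 in the count table and 22 of Huwe1, most of them short pieces of the gene. The chosen transcript of Birc6 ends at its stop codon. Another Birc6 transcript with a 3′UTR, 15768 instead of 14649 bases long, had nearly the same footprint counts and more RNA counts.

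The 3 HECT members are shown by the 30 coding bases around the codon of their catalytic cysteine, the residue on which a HECT ligase carries ubiquitin, because this is the feature by which the group divides. The runs come from the GENCODE M21 transcripts, read 5′ to 3′ on the plus strand, and the capitals mark the cysteine codon. It was located by translating each coding sequence and searching the last 90 residues for a threonine-cysteine pair followed by Phe, Asn, Tyr, Leu or Met, which occurred 1 time in each.
Huwe1: ctgccttcagctcacacaTGTtttaatcaa
Herc1: ctgcctacctcacagaccTGCttcttccag
Herc2: ctcccagaatcctacacaTGCttctttctg
The cysteine is residue 4345 of 4378 in Huwe1, 4809 of 4859 in Herc1 and 4764 of 4836 in Herc2, so that in each protein it is made near the end of translation. The Herc1 run lies at chr9:66508151-66508180 and the Herc2 run at chr7:56230893-56230922, each within 1 exon. The Huwe1 run is interrupted by an intron and spans chrX:151933111-151934290. Base for base, 19 of 30 positions are identical between Herc1 and Herc2, 18 between Huwe1 and Herc1 and 17 between Huwe1 and Herc2.

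The deleted gene, Rpl41, kept 3 to 8 reads in the KO kidney RNA-seq libraries, where WT libraries held 3695 to 7502, and 6 to 12 against 8981 to 12199 in brain, and its footprints fell from 41 to 85 reads to 0 to 2 in kidney and from 37 to 76 reads to 0 to 4 in brain, as the genotype labels state. Library totals lay between 9498663 and 42452425 counts in Ribo-seq, 44998381 and 123745890 in RNA-seq and 1187636 and 3018963 in disome-seq. The tissue labels were checked against marker genes: 4 neuronal markers summed to 1076 to 1388 CPM (counts scaled to a common, TMM-adjusted library size) in brain footprints and 2.59 to 4.05 CPM in kidney footprints, and 4 proximal tubule markers to 3303 to 5252 CPM in kidney and 6.55 to 15.9 CPM in brain. Replicates 2 and 3 of KO kidney RNA-seq stood apart, with 1.76% and 1.67% of counts on mitochondrial rRNA against 0.436% to 0.962% in the other kidney RNA-seq libraries and with 83287 and 86071 transcripts detected against 91222 to 93091.

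In WT tissues, Herc1, Herc2 and Mycbp2 were higher in brain than in kidney, Rnf213 was lower, and Huwe1 and Ubr4 were not called different at either the RNA or the footprint level. The footprint difference of Huwe1 (0.31, SE 0.148, adjusted p = 0.0779) lay near the threshold and was called with at least 10 counts in every library, with 1 transcript per gene (0.42, adjusted p = 0.0243) and without WT brain Ribo-seq replicate 2 (0.41, adjusted p = 0.0243). These are bulk tissues, in which fewer cells of a type and less RNA per cell cannot be told apart. To set genes side by side, levels are given as CPM per kb of transcript for RNA and per kb of coding sequence for footprints.

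In WT kidney, RNA levels per kb were 5.51 ± 0.631 for Huwe1 (SD, n = 3), 3.31 ± 0.414 for Ubr4, 2.27 ± 0.479 for Mycbp2, 1.32 ± 0.0407 for Herc2, 1.24 ± 0.122 for Herc1, 1.06 ± 0.268 for Birc6 and 0.988 ± 0.105 for Rnf213. The 4 lowest differed from their neighbours in this order by no more than the SD of one or both. In WT brain the order was Huwe1 (5.20 ± 0.423), Mycbp2 (5.14 ± 0.740), Ubr4 (3.51 ± 0.398), Herc2 (3.30 ± 0.507), Herc1 (3.13 ± 0.432), Birc6 (1.31 ± 0.306) and Rnf213 (0.215 ± 0.0251). Huwe1 and Mycbp2 were within their spread of each other, as were Ubr4, Herc2 and Herc1, while Birc6 and Rnf213 stood clearly below.

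Footprint levels per kb in WT kidney were highest for Birc6, at 7.57 ± 0.222 (SD, n = 3), followed by Huwe1 (6.03 ± 0.699), Ubr4 (4.98 ± 0.416), Herc2 (1.92 ± 0.145), Rnf213 (1.76 ± 0.133), Herc1 (1.57 ± 0.0396) and Mycbp2 (1.20 ± 0.119). In WT brain 6 members lay close together, from 4.91 ± 0.691 for Birc6 to 7.58 ± 1.07 for Huwe1, and Rnf213 was at 0.373 ± 0.0798. Among the 20191 coding genes with a footprint in WT kidney, the members ranked between the 45.7th percentile (Mycbp2) and the 74.6th (Birc6) of footprint level per kb. Birc6 combined a low RNA level with a high footprint level, a ratio of 7.13 in WT kidney where the other members had 0.529 (Mycbp2) to 1.79 (Rnf213). The ratio depends on the transcript chosen: the Birc6 transcript with a 3′UTR had 32.4 ± 1.17 CPM of RNA in WT kidney (SD, n = 3) and the one used here 15.6 ± 3.93 CPM, while their footprints were 111 ± 3.28 and 111 ± 3.25 CPM.

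The test of WT brain against WT kidney (edgeR's quasi-likelihood F-test, Benjamini-Hochberg adjustment over all transcripts tested, called below 0.05) gave log2 differences in RNA of 1.29 for Herc1 (SE 0.160, adjusted p = 6.99e-05), 1.29 for Herc2 (SE 0.157, adjusted p = 6.20e-05), 1.14 for Mycbp2 (SE 0.196, adjusted p = 6.16e-04) and -2.24 for Rnf213 (SE 0.169, adjusted p = 2.11e-06). In footprints they were 1.75 for Herc1, 1.54 for Herc2, 2.13 for Mycbp2, a 4.37-fold higher level in brain, and -2.24 for Rnf213, with adjusted p from 1.08e-08 to 4.51e-07. Birc6 had fewer footprints in brain, by a log2 difference of -0.65 (SE 0.138, adjusted p = 7.65e-04), without a called difference in RNA (0.27, SE 0.225, adjusted p = 0.317). The direction of this RNA value depends on the transcript chosen. The Birc6 transcript of 15768 bases had less RNA in WT brain (25.6 ± 3.61 CPM, SD) than in WT kidney (32.4 ± 1.17 CPM). Its mean footprints were also lower in WT brain (71.9 CPM) than in WT kidney (111 CPM). The test of its RNA between tissues is not given here. The tissues differed throughout: 64.9% of the 88731 transcripts tested for RNA and 71.0% of the 82957 tested for footprints were called, and the 4 and 5 called members of 7 are close to that background.

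**Figure D1:**
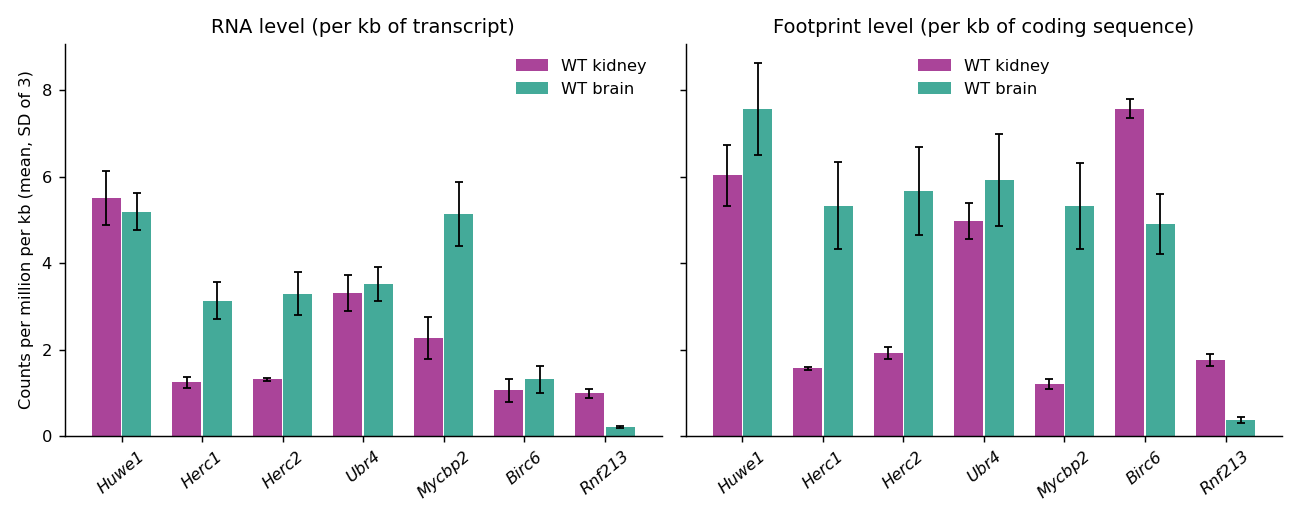
Level of each member in the 3 WT libraries of kidney and brain, as CPM per kb of transcript for RNA (left) and per kb of coding sequence for footprints (right); bars are means and error bars the SD. Herc1, Herc2 and Mycbp2 stand higher in brain in both panels, Rnf213 stands at 0.215 in brain RNA and 0.373 in brain footprints, and Birc6 has the highest bar of kidney footprints (7.57) beside one of the lowest of kidney RNA (1.06).

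On loss of Rpl41, footprints on all 7 members rose in kidney, by 1.42-fold (Huwe1) to 1.82-fold (Rnf213). The rise was called for 7 of 7, and for each of them the 3 KO libraries lay above the 3 WT libraries. Rnf213, the ligase with the ATPase ring, had the highest log2 fold change (0.87), and the other 6 lay between 0.51 and 0.65, with SEs of 0.0979 to 0.123.

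Huwe1, the HECT ligase of p53 and Mcl1, had 82.0, 86.7 and 69.0 CPM of footprints in the WT kidney libraries and 103, 118 and 118 CPM in KO (log2 fold change 0.51, SE 0.123, adjusted p = 0.0277). The lowest KO library was thus above the highest WT library, with no overlap. Herc1 had 22.3, 22.8 and 23.4 CPM in WT and 34.4, 35.7 and 33.7 CPM in KO (0.60, SE 0.0979, adjusted p = 0.00754). Its replicates lay close together within each genotype, well apart from those of the other. Herc2, a HECT ligase known from DNA damage signalling, had 30.1, 27.8 and 25.9 CPM in WT and 37.3, 44.2 and 43.8 CPM in KO (0.59, SE 0.111, adjusted p = 0.0124).

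Ubr4, the UBR-box ligase, had 84.4, 76.1 and 71.7 CPM in WT kidney and 112, 126 and 127 CPM in KO (log2 fold change 0.65, SE 0.116, adjusted p = 0.00958). Mycbp2 had the fewest kidney footprints, with 18.1, 18.1 and 15.1 CPM in WT and 22.8, 27.6 and 28.5 CPM in KO (0.63, SE 0.118, adjusted p = 0.0122). For Mycbp2 and all other members except Herc1, KO replicate 1, the shallowest kidney Ribo-seq library with 11036643 counts, lay below KO replicates 2 and 3, the deepest with 42452425 and 39384669. Birc6, the caspase inhibitor with its own E2 domain, had 114, 110.5 and 108 CPM in WT and 151, 181 and 189 CPM in KO (0.65, SE 0.123, adjusted p = 0.0125). Rnf213 had 29.5, 26.9 and 25.4 CPM in WT and 43.6, 51.3 and 54.1 CPM in KO (0.87, SE 0.115, adjusted p = 0.00316). Every value rested on at least 206 reads, the count of Mycbp2 in WT replicate 3.

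**Figure D2:**
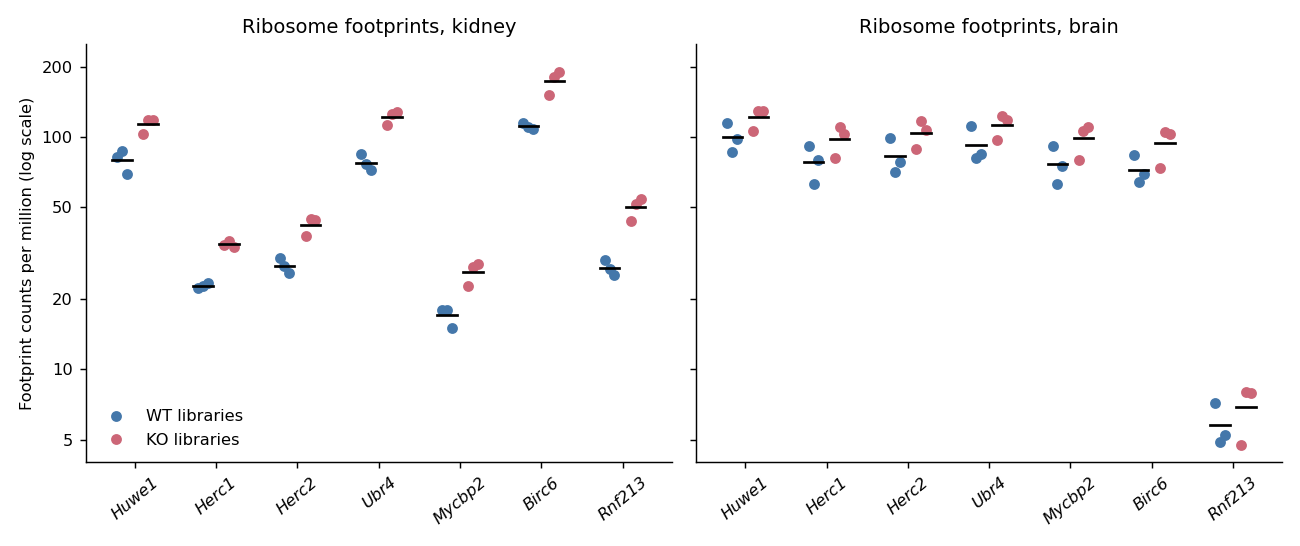
Footprint CPM (log axis) of each member in each library of kidney (left) and brain (right); points are the 3 WT and 3 KO libraries and short lines their means. In kidney the KO points of all 7 members lie above the WT points, and in brain the KO means are higher but the points of the genotypes overlap for each member.

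Against this stands the background of the same test, in which 7.76% of the 75266 transcripts tested were called and 4.75% were called higher in KO. Over 1 transcript per gene 5.97% were called higher, and 17.0% of 13454 genes had 3 KO libraries above 3 WT libraries. The median log2 fold change over 1 transcript per gene was -0.02, with 47.5% above 0, and the members' median was 0.63. Scaling moved the balance of the table: 3573 transcripts were called higher and 2265 lower with TMM, and 1531 higher and 2543 lower with library totals alone, where 6 of 7 members were called. The calls depended on single libraries. Huwe1 was the least stable: its call was also lost with library totals alone (adjusted p = 0.0544), with gene sums (adjusted p = 0.0671), with a replicate block (adjusted p = 0.0632) and without WT replicate 1 (adjusted p = 0.0679) or WT replicate 3 (adjusted p = 0.0540), at log2 fold changes of 0.43 to 0.53. Without KO replicate 2 or without KO replicate 3, Rnf213 was the 1 member called (adjusted p = 0.0287 and 0.0314). The log2 fold changes then ranged from 0.48 (Huwe1) to 0.84 (Rnf213), and with all 3 libraries from 0.51 to 0.87.

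Summed levels of cell type markers also differed between these libraries. In kidney footprints the summed level of 4 proximal tubule markers was 3303 to 3878 CPM in WT and 4590 to 5252 CPM in KO, that of 3 thick limb and collecting duct markers 1021 to 1114 and 1371 to 1622 CPM, that of 3 endothelial markers 59.3 to 88.4 and 99.5 to 109 CPM, and that of 4 immune markers 15.5 to 19.8 and 23.4 to 25.6 CPM. These 4 lists did not overlap between genotypes. Within the proximal tubule list, Lrp2 had 1344 to 1648 CPM of footprints in WT and 2174 to 2344 CPM in KO. Cubn had 416 to 529 and 625 to 737 CPM, and Slc22a6 271 to 295 and 298 to 424 CPM. Slc34a1 overlapped (1168 to 1429 CPM in WT, 1219 to 2030 CPM in KO). Lrp2, with 4660 residues, is also one of the genes as long as the members that are compared below. Within the second list the thick limb markers Umod and Slc12a1 were higher in KO, whereas the collecting duct marker Aqp2 was at 63.2 to 84.6 CPM in WT and 54.5 to 60.7 CPM in KO. The 2 erythroid markers overlapped (389 to 496 CPM in WT and 236 to 501 CPM in KO). No marker of these 5 lists was at 0 in every kidney Ribo-seq library of a genotype. In kidney RNA the lists differed in direction. The thick limb and collecting duct list had 1219 to 1530 CPM in WT and 1062 to 1205 CPM in KO and the endothelial list 29.7 to 40.0 and 23.4 to 28.3 CPM, both lower in KO, whereas the proximal tubule list had 2839 to 2927 and 3049 to 3465 CPM and the immune list 27.2 to 34.9 and 37.1 to 38.9 CPM. Within the proximal tubule list, Slc34a1 RNA was 1849 to 1988 CPM in WT and 2179 to 2592 CPM in KO. Cubn went the other way (109.4 to 150.2 and 93.6 to 108.6 CPM), as did the mean of Lrp2 (611 and 533 CPM). The mean of Slc22a6 was 221 CPM in WT and 232 CPM in KO. In the thick limb and collecting duct list, the mean of Aqp2 RNA was 78.1 CPM in WT and 92.1 CPM in KO. The part of all these shifts in the footprint, RNA and TE values of the ligases was not tested.

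No change in the RNA of the members was called. In kidney RNA-seq 0 of 7 were called by edgeR's quasi-likelihood test, 0 at an unadjusted p below 0.05 and 0 by DESeq2, against 0.00992% of 70545 transcripts called. Huwe1 had a log2 fold change of -0.02 (SE 0.146, adjusted p = 0.938), Herc1 of 0.15 (SE 0.170), Herc2 of -0.15 (SE 0.127), Ubr4 of 0.09 (SE 0.156), Birc6 of 0.08 (SE 0.236) and Rnf213 of 0.06 (SE 0.143). For Herc2, 1 of 7 members, the 3 KO libraries, 17.4 to 18.5 CPM, lay just below the 3 WT libraries, 19.4 to 20.5 CPM. This was opposite in direction to its footprints and was not called (adjusted p = 0.506). The share of all genes with such a separation in kidney RNA was not counted, so it carries no weight alone.

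Mycbp2 had the highest value in kidney RNA. Its WT libraries had 34.7, 41.8 and 27.2 CPM and its KO libraries 30.9, 68.9 and 62.2 CPM, a log2 fold change of 0.64 (SE 0.299, adjusted p = 0.305) that was not called. KO replicate 1 lay within the WT range and KO replicates 2 and 3, the libraries with more mitochondrial rRNA, lay above it. Without KO replicate 1 the change was 0.93 (adjusted p = 0.0200), when 17.0% of 73294 transcripts were called. With KO replicates 2 and 3 both left out, an alternative added after seeing the data, the 7 members ranged from -0.30 to 0.05. These values rest on 1 KO library, whose spread was taken to be that of the WT libraries, so that their calls carry no information. Scaling by library totals moved the median of all transcripts from -0.03 to -0.19, and 1 of 7 members, Mycbp2, then had a positive change in kidney RNA instead of 5.

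TE combined these measurements, with 5 of 7 members at an unadjusted p below 0.05 and 0 of 7 called after adjustment by edgeR's quasi-likelihood test. The log2 changes in kidney TE were 0.82 for Rnf213 (SE 0.188, adjusted p = 0.112), 0.74 for Herc2 (SE 0.169, adjusted p = 0.112), 0.57 for Ubr4 (SE 0.197, adjusted p = 0.165), 0.56 for Birc6 (SE 0.272, adjusted p = 0.275), 0.54 for Huwe1 (SE 0.198, adjusted p = 0.181), 0.46 for Herc1 (SE 0.200, adjusted p = 0.236) and -0.01 for Mycbp2 (SE 0.364, adjusted p = 1.00). The 6 positive values differed from each other by no more than about 2 SE, and Mycbp2, whose log2 changes in RNA and footprints were alike (0.64 and 0.63), had the widest error of the group. The RNA and TE changes of Birc6 rest on its transcript without a 3′UTR, with 15.6 ± 3.93 CPM of kidney RNA in WT and 16.5 ± 3.59 CPM in KO. Its transcript with a 3′UTR had 32.4 ± 1.17 and 40.3 ± 9.06 CPM (SD, n = 3). The TE change of that transcript is not given here. Over all transcripts 0.0% of 89685 transcripts were called and 11.3% were higher at an unadjusted p below 0.05. DESeq2 called 2 members, Herc2 and Rnf213 (adjusted p = 8.84e-04 and 0.00376), where it called 4.54% of all transcripts. With 1 transcript per gene, Herc2, Rnf213 and Ubr4 were called (adjusted p = 0.0332, 0.0332 and 0.0498), as were 1.75% of 15613 genes. Without KO RNA-seq replicate 1, Herc2 and Rnf213 were called (adjusted p = 0.0132 and 0.0149), as were 18.0% of all transcripts. With KO RNA-seq replicates 2 and 3 left out together, the log2 changes in TE lay between 0.72 and 0.96, with adjusted p from 0.424 to 0.484, and rest on the 1 KO RNA-seq library that remains.

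In brain no change in the footprints of the members was called, and the 7 values lay above 0. Footprint log2 fold changes were 0.38 for Birc6 (SE 0.147), 0.37 for Mycbp2 (SE 0.153), 0.33 for Herc2 (SE 0.142), 0.33 for Herc1 (SE 0.150), 0.29 for Ubr4 (SE 0.138), 0.28 for Huwe1 (SE 0.127) and 0.26 for Rnf213 (SE 0.204). EdgeR's quasi-likelihood test called 0 of 7 (adjusted p from 0.325 to 0.634), DESeq2 called 0, and 5 of 7 had an unadjusted p below 0.05, where 6.66% of transcripts were higher at that p. Of 81112 transcripts, 0.0345% were called.

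Mycbp2, the axonal ligase, had 90.8, 62.5 and 74.6 CPM of brain footprints in WT and 79.1, 106 and 110 CPM in KO. Birc6 had 83.2, 63.6 and 69.0 CPM in WT and 73.6, 105 and 103 CPM in KO. In both, as in the other 5 members, KO replicate 1 lay within the WT range or below it and WT replicate 1 was the highest of the WT libraries, so that the genotypes overlapped. No member had 3 KO libraries above 3 WT libraries in brain, where 9.89% of genes did. Rnf213 was scarce in brain, where a WT library held 45 to 151 of its footprints and a KO library 83 to 287. Among the marker lists in brain, the erythroid sum was 322 to 930 CPM of footprints in WT and 175 to 223 CPM in KO, and the astrocyte sum 514 to 554 CPM of RNA in WT and 595 to 635 CPM in KO, and their part in the members' values was not tested.

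Brain RNA-seq gave values below 0 for 7 of 7 members, from -0.03 (Mycbp2) to -0.30 (Birc6), of which 0 were called by edgeR or DESeq2 and 0 had an unadjusted p below 0.05 (adjusted p from 0.898 to 0.955, with 0.0134% of 89237 transcripts called). Brain TE was above 0 for 7 of 7, from 0.37 (Huwe1, SE 0.181) to 0.70 (Birc6, SE 0.257), with 0 called by edgeR or DESeq2 (adjusted p = 0.880 for each in edgeR) and 2 at an unadjusted p below 0.05, Birc6 and Herc1. In that test 0.0% of 98861 transcripts were called and 2.29% were higher at an unadjusted p below 0.05.

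An interaction of tissue and genotype tested whether the response differed between tissues. For footprints the brain response minus the kidney response was negative for 7 of 7 members, from -0.23 (Huwe1) to -0.62 (Rnf213, SE 0.245), with 0 called by edgeR (adjusted p from 0.544 to 0.829, 1 at an unadjusted p below 0.05) or DESeq2, against 0.0801% of 88666 transcripts. For RNA the difference ranged from -0.67 (Mycbp2, SE 0.359) to 0.05 (Herc2, SE 0.190), with 0 called by either tool, 0 at an unadjusted p below 0.05 and 0.00108% of 92865 transcripts called. Without KO kidney RNA-seq replicate 1 Mycbp2 was called at -0.95 (adjusted p = 0.0470). For TE it ranged from -0.31 (Herc2) to 0.40 (Mycbp2), with 0 called by either tool, 0 at an unadjusted p below 0.05 and 0.0% of 101570 transcripts called. A smaller response of the members in brain was thus not detectable against the spread of the libraries.

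The disome libraries address whether stacked ribosomes on the members changed with their footprints. Disome levels in kidney had log2 changes above 0 for 7 of 7 members, of which 0 were called by edgeR or DESeq2 and 3 had an unadjusted p below 0.05 (where 5.48% of transcripts were higher at that p, and 0.201% of 34754 were called). Birc6 had 74.3, 78.9 and 58.0 CPM in WT and 104, 116 and 121 CPM in KO (log2 fold change 0.66, SE 0.164, adjusted p = 0.104). Herc2 had 26.6, 30.6 and 16.3 CPM in WT and 33.4, 41.2 and 45.8 CPM in KO (0.61, SE 0.213, adjusted p = 0.270), and Mycbp2 40.8, 52.0 and 20.8 CPM in WT and 54.3, 68.8 and 59.5 CPM in KO (0.60, SE 0.218, adjusted p = 0.294). For these 3 members the KO libraries lay above the WT libraries, as they did for 8.63% of 7773 genes. The other 4 overlapped, with log2 changes of 0.39 for Rnf213 (SE 0.194), 0.20 for Herc1 (SE 0.222), 0.18 for Huwe1 (SE 0.194) and 0.11 for Ubr4 (SE 0.175). The sign of the last 2 turned when 1 library was left out, for Huwe1 without KO replicate 2 (-0.0073) and for Ubr4 without WT replicate 3 (-0.0013). These libraries were shallow: Herc2 rested on 18 disome reads in WT replicate 3 and Huwe1 on 364 in WT replicate 2. With a replicate block Birc6 was called (0.66, adjusted p = 0.0380).

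Disomes relative to footprints ranged from -0.53 for Ubr4 (SE 0.215, adjusted p = 0.818) to 0.03 for Herc2 (SE 0.235, adjusted p = 1.00). The changes for Rnf213 (-0.46, SE 0.225), Herc1 (-0.40, SE 0.244) and Huwe1 (-0.31, SE 0.246) were also below 0, and those for Mycbp2 (-0.02), Birc6 (0.03) and Herc2 lay near 0. None was called by edgeR or DESeq2, 1 of 7 had an unadjusted p below 0.05 (Ubr4), and 0.0% of 67065 transcripts were called. At this depth a change in stacking per ribosome was not detectable for any member.

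Short annotated isoforms that cover part of a gene gave a coarse view of where along the mRNA the footprints lay. For each library, the counts per base on isoforms lying on the 5′ side of the midpoint of the main transcript were divided by those on isoforms on its 3′ side. In kidney 5 members had at least 10 counts in each part in every library. Herc1 ratios were 2.36 to 3.45 in the WT libraries and 1.60 to 2.01 in the KO libraries. For Huwe1 the WT libraries gave 1.48 to 2.13 and the KO libraries 1.32 to 1.46, and for Ubr4 they gave 1.07 to 1.31 and 0.811 to 0.966. In these 3 members every KO ratio lay below every WT ratio: relative to the 3′ part, the 5′ part held fewer footprints in KO. Herc2 (0.710 to 1.34 in WT, 0.773 to 0.892 in KO) and Birc6 (1.51 to 1.85 in WT, 1.46 to 1.53 in KO) overlapped, with the mean lower in KO. The same shift was common in these libraries: of 1367 genes measured in this way, 18.4% had every KO ratio below every WT ratio, 2.78% the reverse, and the median change was -0.14 on the log2 scale, with -0.39 for the 5 members.

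In brain, where 6 members could be measured, 0 of 6 had every KO footprint ratio below every WT ratio. Birc6 had the reverse (1.29 to 1.46 in WT, 1.47 to 1.61 in KO). Of 1423 genes measured in brain, 10.4% had every KO ratio below every WT ratio and 4.08% the reverse. With so few members, 0 of 6 cannot be told from that share. RNA-seq reads lay far more to the 3′ side than footprints did. Huwe1 RNA ratios in kidney were 0.0563 to 0.113 for WT and 0.0476 to 0.0564 for KO, and over 1255 genes the median ratio was 0.189 in WT and 0.117 in KO. For Birc6 and Herc2, the other 2 members with a kidney RNA ratio, it was 0.0342 to 0.0522 and 0.0285 to 0.0367 for WT and 0.0506 to 0.0748 and 0.0349 to 0.141 for KO, with higher means in KO. Partial isoforms can hold introns and exons that the main transcript lacks, and these bases count in the length used. A read on overlapping isoforms is counted for each of them. A ratio of 1 thus does not mean equal footprint density on the 2 sides. Under a stricter rule added after seeing the data, by which at least 90% of an isoform's bases lie on the main transcript, Herc2 and Birc6 were left in kidney and 0 of 2 had every KO ratio below every WT ratio, while Huwe1, Herc1 and Ubr4 could not be measured. In brain the genotypes of Birc6 then overlapped (1.09 to 1.26 in WT, 1.19 to 1.46 in KO).

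**Figure D3:**
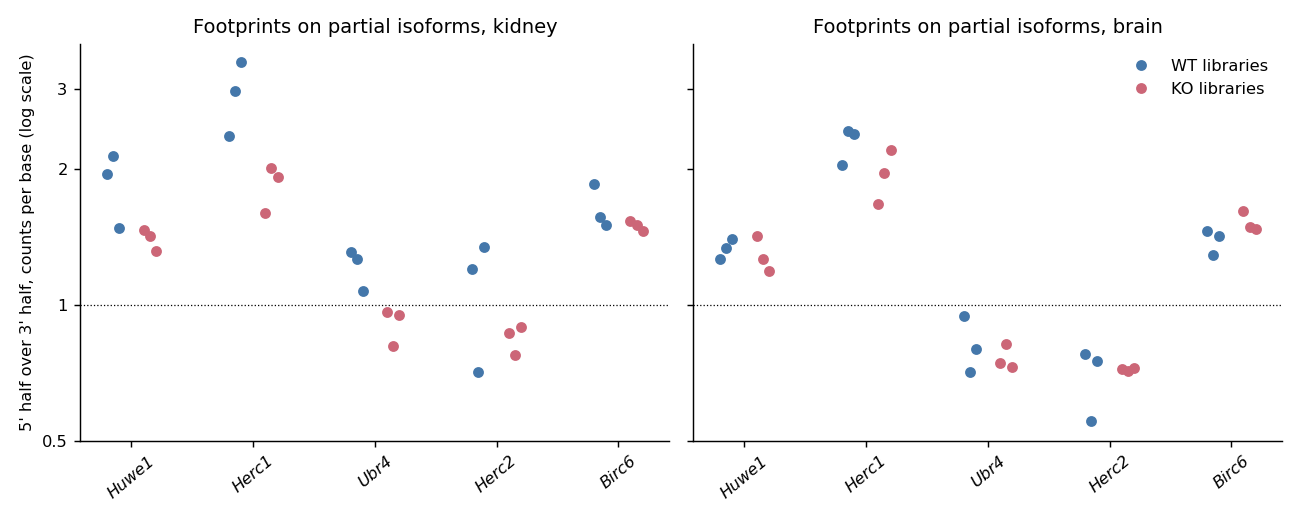
Counts per base on partial isoforms in the 5′ part over those in the 3′ part (log axis), from footprints. Kidney is on the left and brain on the right, with 1 point for each WT and KO library. The dotted line marks a ratio of 1. In kidney the KO points of Huwe1, Herc1 and Ubr4 lie below the WT points, and in brain the genotypes overlap for these 3 members.

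The other genes of the pathway changed in both directions, against 5.97% of genes called higher and 3.91% called lower over 1 transcript per gene. Among the other HECT ligases, 3 of 23 tested in kidney footprints were called higher and 3 lower, with a median log2 fold change of 0.22. Hecw1, a neuronal relative of Nedd4, fell by 1.85 on the log2 scale (SE 0.272, adjusted p = 0.00475), from 51 to 70 reads per WT library to 16 to 39 reads per KO library. In WT its RNA was higher in brain than in kidney by 13.1 on the log2 scale and its footprints by 2.93. Whether its few kidney footprint reads come from its own mRNA was not tested. The interferon-induced Herc6 rose by 0.75 (SE 0.193, adjusted p = 0.0343, 27 to 66 reads per WT library and 27 to 167 per KO library). Its kidney RNA had a similar log2 fold change of 0.77, which edgeR's quasi-likelihood test did not call (SE 0.267, adjusted p = 0.292). Hecw1 was also the 1 gene of this list whose footprint response was called different between tissues, brain minus kidney (2.02, SE 0.291, adjusted p = 0.00829).

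Of the UBR-box and IAP relatives of Ubr4 and Birc6, 2 of 8 tested were called higher in kidney footprints and 0 lower (median 0.22). They were the N-degron ligases Ubr1 (0.51, SE 0.0961, adjusted p = 0.0125) and Ubr2 (0.46, SE 0.129, adjusted p = 0.0456). Of the E1 and E2 enzymes, which act upstream of the ligases, 2 of 28 were called higher and 1 lower, shares near that background, and the median was -0.16. The 2 higher genes were the E1 enzymes Uba1 (0.46, SE 0.113, adjusted p = 0.0291) and Uba6 (0.44, SE 0.0978, adjusted p = 0.0203), of 1058 and 1053 residues, and the lower one was the E2 enzyme Ube2q1 (-0.38, SE 0.105, adjusted p = 0.0465). Of the partners and substrates of the members, 0 of 12 were called higher and 1 lower, with a median of -0.15. The lower one was Diablo, an antagonist of IAP proteins that Birc6 ubiquitinates (-0.39, SE 0.106, adjusted p = 0.0414).

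Proteins as long as the members were the closest in size to compare. Of 53 other genes with a longest protein of at least 4378 residues, 44 were tested in kidney footprints, 16 were called higher and 5 lower, with values from -1.56 to 1.20 and a median of 0.25. The 3 largest changes in that list were falls in genes with few kidney footprints: the sperm gene Fsip2 (-1.56, adjusted p = 0.00759, 57 to 90 reads per WT library and 18 to 69 per KO library), the axonemal dynein Dnah8 (-1.39, adjusted p = 0.0132) and the receptor Lrp1b (-1.31, adjusted p = 0.0418, 1 to 16 reads per KO library). In the whole list 24 of 44 values were above 0. Some peers with many kidney footprints rose, with every KO library above every WT library. Lrp2 had 1344 to 1648 CPM in WT and 2174 to 2344 CPM in KO, and Abca13 108 to 154 and 222 to 368 CPM. A rise in kidney footprints was thus not particular to the ligases.

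In the other KO comparisons the lists gave few calls. In brain footprints 0 genes of the 5 lists were called by edgeR's quasi-likelihood test, and the lists' medians were 0.19 for other HECT ligases (8 of 24 higher at an unadjusted p below 0.05), 0.28 for UBR-box and IAP relatives (3 of 8 higher), -0.13 for E1 and E2 enzymes (3 higher and 2 lower of 28), -0.05 for partners and substrates (2 lower of 13) and 0.04 for the length peers (9 higher and 7 lower of 47), beside 0.33 for the members. Over all transcripts in brain footprints, 10214 of 81112 had an unadjusted p below 0.05, 5400 of them higher in KO. Nedd4, the founding HECT ligase of its family, had a log2 change of 0.44 (adjusted p = 0.258) and Uba1 of 0.39 (adjusted p = 0.245). In RNA and TE of both tissues 0 genes of the lists were called by the same test, with 8 of 38 length peers lower in kidney RNA and 18 higher and 6 lower of 51 in kidney TE at an unadjusted p below 0.05, and in kidney disomes 1 length peer was, the lipid transporter Abca13 (0.93, SE 0.159, adjusted p = 0.00652). Over all transcripts in kidney RNA, 11881 of 70545 had an unadjusted p below 0.05, 6520 of them higher in KO. In kidney TE 17404 of 89685 did, 10111 of them higher in KO.

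Across the 30 libraries the members varied together. With log2 CPM centred within each tissue and assay, the 21 pairs of members had Pearson's r of 0.66 to 0.93 (median 0.78), and each member had an r of 0.80 (Birc6) to 0.94 (Herc1) with the mean of the other 6. These correlations are descriptions, since the points share the genotype difference, the library and its depth. The 5 genes of 7258 most like the members' mean by this measure were Vps13b (r = 0.94), a lipid transfer protein of the Golgi, the nucleoporin Ahctf1 (r = 0.94), Prrc2c (r = 0.93), Jmjd1c of the histone demethylase family (r = 0.93) and the nuclear pore basket protein Tpr (r = 0.92), with proteins of 2243 to 3993 residues.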

How the data were processed

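Kidney and brain of 3 WT and 3 KO mice per group were profiled by RNA-seq and Ribo-seq, and kidney also by disome-seq. Per the labels and the study's methods, ribosomes were digested with RNase I and pelleted through a sucrose cushion, reads were trimmed with cutadapt, mapped with STAR to GRCm38 with multimapping allowed, and counted per transcript with featureCounts from Subread. The values are unnormalised counts per transcript, as deposited by the authors. A read was counted for each transcript it matched, so isoforms of a gene share reads, and totals can exceed the number of reads. The labels name separate samples per group and do not tie them to animals across assays, so the p-values measure the spread between these samples.

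Of 142604 transcripts in the table, 141374 were matched to GENCODE M21. The members, the lists and the tests were chosen with earlier results of these data known. Each comparison was fitted over all transcripts with edgeR 4.0.16 (R 4.3.3): filterByExpr, TMM, quasi-likelihood F-test, Benjamini-Hochberg adjustment, calls below 0.05. TMM factors were set within each tissue and assay, so that levels compared between tissues rest on library totals. SEs were derived from the F statistic. TE, disomes relative to footprints and tissue differences were interaction terms. The pipeline was tested on simulated counts. Alternatives were DESeq2 1.42.0, library totals alone, no filter, a minimum of 10 counts in every library, 1 transcript per gene, gene sums, a replicate block, and each library left out in turn. All members were named. Of each list, up to 3 called genes with the largest change were eligible to be named, or up to 2 with the smallest unadjusted p where none was called. 1 such gene is not reported here. The 5 genes most like the members were found from log2(CPM + 0.5).

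Same-numbered WT and KO samples did not deviate together (r from -0.443 to 0.490 in brain RNA-seq). Same-numbered RNA-seq and Ribo-seq samples did in kidney, with r of 0.138 to 0.240 in WT and 0.101 to 0.120 in KO, and in WT brain (0.228 to 0.407) but not in KO brain (-0.009 to 0.113). Kidney Ribo-seq and disome-seq samples did in WT (0.173 to 0.206) and more weakly in KO (0.065 to 0.096). Differently numbered KO samples of these 2 assays had r of -0.080 to 0.005. The 44 HEK293T samples were not analysed here, and 28 columns of a second table were assigned to no sample and not used.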

Additional observations from a re-analysis of the deposited data

How the results depend on the processing

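Of 1533 alternative values of single members, 1503 kept the outcome of the main fit, 17 lost a call and 13 gained one. A called direction was reversed in 0, which was possible only for values that the main fit had called. Uncalled values could change sign, as for Mycbp2 in kidney TE (12 of 20 runs). In kidney footprints Huwe1 kept its call in 6 of 13 runs. For kidney footprints 6 or 7 members were called under every alternative that kept all libraries, including 6 with a replicate block (without Huwe1), and leaving out 1 library gave 1 to 7, the lowest without KO Ribo-seq replicate 2 or 3, which left 517 and 285 transcripts called in the table. For kidney TE, DESeq2 called 2 members and 1 transcript per gene 3, and leaving out 1 library gave 0 to 2. For kidney disomes a replicate block called 1 member, Birc6. Leaving out 1 library gave 0 to 1 members in kidney RNA and 0 to 1 in the tissue difference of the RNA response, in each case Mycbp2 without KO kidney RNA-seq replicate 1. The replicate block changed the call of no other count of members. The stricter rule for partial isoforms, chosen after seeing the data, gave 0 members with every KO ratio lower instead of 3, with fewer members measured.

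Counts over the whole table moved more. Kidney footprint calls numbered 5838, and 3405 with DESeq2, 4010 with a replicate block, 786 to 9936 over the alternatives that kept all libraries and 285 to 5843 with 1 library left out. Kidney RNA calls numbered 7, up to 344 and up to 12466 in the same order, kidney TE calls 0, up to 4068 and up to 16559, and disome calls 70, 7 to 278 and 32 to 173. Disome counts of 18 to 364 per member and library limit what that assay could show.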
